A study of Homo sapiens with 4 samples.

Results

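The 10 genes described here mark cell identity in glioma: GFAP, VIM, NES, SOX2, OLIG2, PROM1, S100B, CD44, CHI3L1 and SOX9, chosen by name as astrocyte, glioma stem-cell and mesenchymal-subtype markers. They are 10 of the 27940 gene symbols in the tables used here. RNA came from U87, an established human glioma cell line grown in serum-containing medium, with 2 libraries in each of 2 groups. The control group, shNC, was infected with lentivirus made from the empty FUGW-H1 vector, although the design text of the series names the control as H1-RFP (WT). The knockdown group, shPTPRN3, was infected with lentivirus carrying a single short hairpin RNA against PTPRN, a transmembrane protein of the tyrosine phosphatase family found in secretory vesicles. Both groups are therefore lentivirus-infected U87 cells, and the comparison describes how the libraries with the hairpin differ from those of the control. No second hairpin was analysed here, and the labels do not say whether the infected cells were a pool or a clone. The libraries are called biological replicates without a statement of separate cultures. The p-values therefore rest on the spread of these particular libraries, part of which may be technical. They also use spread borrowed from other genes of similar level.

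Glial cells are distinguished by their intermediate filaments, by the transcription factors that hold them in a lineage and by surface proteins used to sort them. Astrocytes carry filaments of GFAP and vimentin, neural progenitors add nestin, and the factors SOX2, SOX9 and OLIG2 act in neural progenitors and in glia that arise from them. In glioblastoma, high CD44 and CHI3L1 are used as marks of a mesenchymal expression state, and OLIG2 as a mark of a proneural state.

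The target sequence of the hairpin is shown because it names the reagent given to the shPTPRN3 group. The control carried no hairpin, and the vector it carried is named in 2 ways, so effects of the target sequence, of any hairpin and of the vector cannot be told apart. Capitals mark the 7 bases that would pair with bases 2 to 8 of an antisense guide starting at the last base of the target.

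PTPRN hairpin target: ggaagtctgtattCAGGATGg

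Among GENCODE 29 transcripts the whole sequence of 21 bases was found in PTPRN and in no other gene. The longest stretch that any of the 10 markers shared with it, read on the transcript strand, was 10 bases, in PROM1, and in the other 9 markers it ran from 6 bases (OLIG2) to 9 (S100B). The 7-base motif CAGGATG, searched on the transcript strand only, occurred in a coding transcript of 3 markers (GFAP, VIM and NES) and in 37.6% of 19669 protein-coding genes.

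PTPRN itself stood at 28.6 and 19.3 FPKM in shNC and at 5.22 and 3.42 FPKM in shPTPRN3. FPKM are fragments normalised to transcript length and to library depth, so levels can be set side by side between genes. Its log2 difference was -2.22 with an SE of 0.34 (limma, adjusted p = 0.0592), which misses the threshold of 0.05. The tables hold no counts. Taking the deposited confidence intervals of single-exon genes as counting error gave depths of 11.7 to 27.8 M fragments, highest in shPTPRN3 replicate 1.

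The 10 markers spanned the whole range of expression. VIM, CHI3L1 and CD44 were abundant in all 4 libraries, NES and SOX9 lay between 0.883 and 3.91 FPKM, OLIG2 was below 1 FPKM, and SOX2, S100B, PROM1 and GFAP were at or close to 0. Ordered by mean scaled FPKM, the sequence was VIM, CHI3L1, CD44, NES, SOX9, OLIG2, SOX2, S100B, PROM1 and GFAP. The first 3 did not overlap each other or the rest in any library. NES and SOX9 exchanged places, with NES above SOX9 in 2 of 4 libraries, and the ranges of SOX2, S100B and PROM1 overlapped. OLIG2 was below SOX9 in 4 of 4 libraries although the 2 ranges overlapped, with a highest OLIG2 value of 0.872 and a lowest SOX9 value of 0.851 scaled FPKM.

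**Figure D1:**
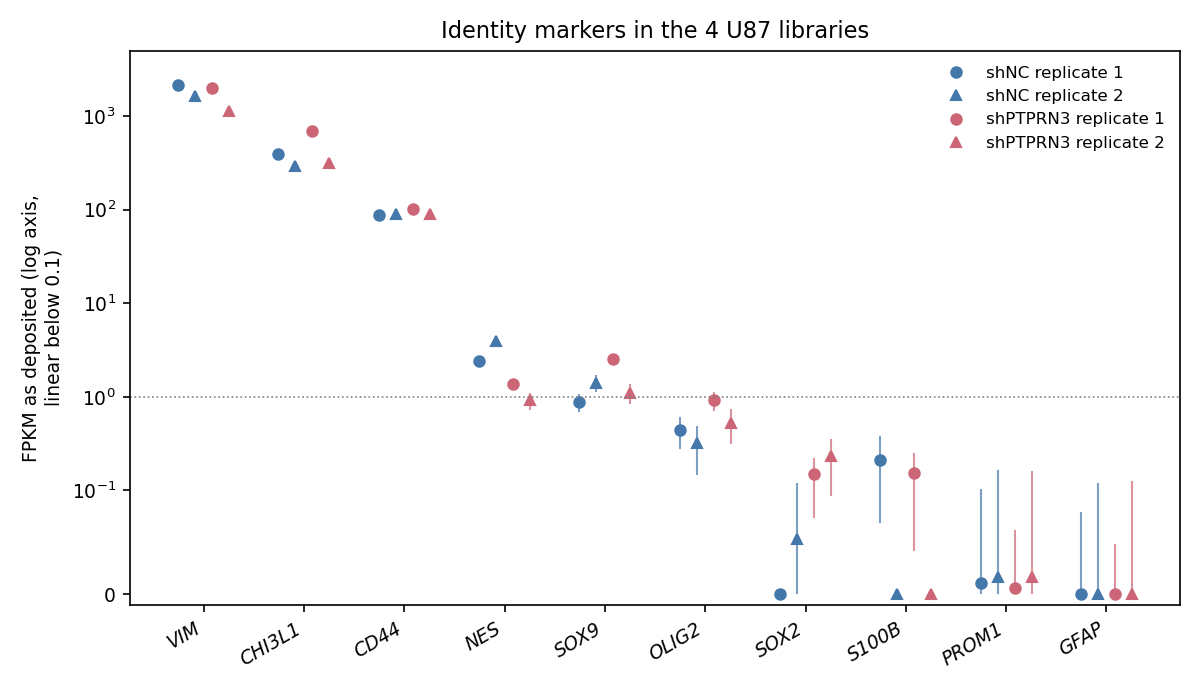
Deposited FPKM of the 10 markers (vertical axis, logarithmic above 0.1 and linear below) in each library, with vertical lines for the deposited confidence intervals; the dotted line is at 1 FPKM. VIM, CHI3L1 and CD44 lie far above the other markers in all 4 libraries, and GFAP is listed at 0 in each of them.

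After scaling, genes averaging 1 FPKM or more over the 4 libraries were tested, which kept 11390 genes. This filter passed 5 of the 10 markers (VIM, NES, CD44, CHI3L1 and SOX9). It left out GFAP, SOX2, OLIG2, PROM1 and S100B, which therefore have levels but no test in this fit. limma called 0 of the 5 tested markers at an adjusted p under 0.05, against 48 of all tested genes, or 0.421%. By direction, 0.079% of tested genes were called higher and 0.342% lower. Before adjustment, 1 of the 5 markers (NES) had a p under 0.05, against 13.4% of tested genes. The counts at an unadjusted p under 0.05 given below for related lists stand against the same share. The median log2 difference of the 5 was 0.13, against -0.01 over all tested genes. An exact permutation test of 2 against 2 libraries cannot give a two-sided p below 0.333, so single genes are described by their values and by limma.

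The intermediate filament genes included both the highest and the lowest of the 10 markers. VIM encodes vimentin, the filament protein of mesenchymal cells and of immature and reactive astrocytes. Its locus is on chromosome 10 (17228241 to 17237593, plus strand, hg38). Its FPKM was 2177 and 1654 in shNC and 1986 and 1124 in shPTPRN3. It was among the most abundant transcripts, between rank 11 and rank 16 of 27940 symbols in each library. The groups overlapped, since shPTPRN3 replicate 1 lay between the control libraries and only shPTPRN3 replicate 2 lay below both. Both libraries numbered 1 were above both numbered 2, in deposited and in scaled FPKM. The log2 difference was -0.33 with a 95% interval from -1.85 to 1.19 (limma, adjusted p = 0.877). It was -0.00034 without shPTPRN3 replicate 2 and -0.66 without shPTPRN3 replicate 1. The deposited FPKM of VIM lay below its own confidence interval in 4 of 4 libraries, for example 2177 against an interval of 2196 to 2232 in shNC replicate 1. In each library 4.43% to 10.6% of rows at 1 FPKM or more lay outside their own interval; the cause was not tested. VIM-AS1, an antisense gene that overlaps the start of VIM, was listed at 0 in all 4 libraries.

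NES encodes nestin, a filament protein of neural stem and progenitor cells that assembles with vimentin. Its locus is on chromosome 1 (156668763 to 156677407, minus strand, hg38). Its FPKM was 2.44 and 3.91 in shNC and 1.37 and 0.917 in shPTPRN3. Both knockdown libraries were below both control libraries, and the deposited shNC intervals (2.14 to 2.73 and 3.43 to 4.37) lay wholly above the shPTPRN3 intervals (1.19 to 1.53 and 0.723 to 1.11). Groups without overlap in that direction occurred in 23.1% of tested genes. The 2 deposited intervals within each group did not overlap each other either, so they do not cover the spread between libraries. Scaled means were 3.18 ± 1.17 in shNC and 1.14 ± 0.230 in shPTPRN3 (SD, n = 2), a ratio of 0.357. In bulk RNA, fewer nestin-expressing cells and less NES mRNA per cell cannot be told apart. The log2 difference of -0.94 (SE 0.33) was larger in size than that of 88.0% of tested genes, yet limma's adjusted p of 0.289 missed the threshold. Between the libraries numbered 1 it was -0.54 and between those numbered 2 it was -1.34, and the 95% interval ran from -1.73 to -0.16. With the replicate number as a block, NES was called lower (limma, adjusted p = 0.0278), among 2163 genes called in that fit. The labels state no pairing of the libraries. A pseudocount of 1 shrinks a difference at so low a level, and with 0.1 the estimate was -1.37 (adjusted p = 0.308).

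GFAP, the filament protein that defines mature astrocytes, has its locus on chromosome 17 (44903159 to 44915552, minus strand). It was listed at 0 in all 4 libraries, with upper bounds of 0.0787 and 0.121 FPKM in shNC and 0.0485 and 0.125 FPKM in shPTPRN3. ANAPC11, a subunit gene of the complex that every dividing cell uses to leave mitosis, was named after its values were seen. It was also listed at 0 in both shNC libraries, and its mean in shPTPRN3 was 66.3 scaled FPKM. It was called higher (limma, adjusted p = 0.00365), so the genes called include one with exact 0s. Whether an exact 0 is a failed estimate, for ANAPC11, GFAP or other genes listed at 0, was not tested. CCDC103, on the other strand across the end of the GFAP locus, stood at 5.68 to 8.03 FPKM. Of the glial filaments these U87 libraries thus held abundant vimentin mRNA, while the defining astrocyte filament was listed at 0.

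Of 17 other intermediate filament and linker genes, 8 were tested and limma called none, with 1 at an unadjusted p under 0.05 and a median log2 difference of -0.20. The most abundant was LMNA, which encodes the A-type lamins of the nuclear envelope, at 309 and 241 scaled FPKM in shNC, against 331 and 395 in shPTPRN3. PLEC, the linker plectin, had 33.3 and 67.3 in shNC and 42.8 and 76.0 in shPTPRN3. LMNB2, a B-type lamin, had 58.8 and 64.7 against 44.3 and 32.8, with a log2 difference of -0.68 (limma, adjusted p = 0.448). LMNB1, the gene below an unadjusted p of 0.05 and named after its values were seen, had means of 11.8 and 2.93 scaled FPKM.

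The mesenchymal-state markers were both abundant. CD44 encodes the hyaluronan receptor of the cell surface. Its locus is on chromosome 11 (35139171 to 35232402, plus strand). Its FPKM was 87.7 and 89.5 in shNC and 102.8 and 89.4 in shPTPRN3, the narrowest spread of the markers at 1 FPKM or more, with a highest value 1.17 times the lowest. On the scaled values (84.6 and 91.9 against 97.7 and 94.9) both knockdown libraries lay just above both controls, an order found in 21.5% of tested genes. On deposited FPKM the groups overlapped. The log2 difference was 0.13, larger in size than that of only 19.8% of tested genes, with a 95% interval from -0.72 to 0.97 (limma, adjusted p = 0.922). Within groups the log2 SD of CD44 was 0.06, against 0.36 after limma drew on other genes. The interval does not exclude a change of either sign, and the gene-level table does not separate the CD44 splice forms.

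CHI3L1 encodes a secreted chitinase-like glycoprotein, also called YKL-40. Its locus is on chromosome 1 (203178931 to 203186704, minus strand, hg38). Its FPKM was 389 and 291 in shNC and 699 and 313 in shPTPRN3, between rank 72 and rank 190 of all symbols. One library, shPTPRN3 replicate 1, stood above the other 3, while shPTPRN3 replicate 2 lay between the control libraries. As for VIM, both libraries numbered 1 were above both numbered 2, in deposited and in scaled FPKM. Total FPKM was also higher in the libraries numbered 1 (482591 in shNC and 412206 in shPTPRN3) than in those numbered 2 (320752 and 324641). The scaled means were 337 ± 54.5 and 498 ± 235 (SD, n = 2), and the log2 difference was 0.49 with an SE of 0.53 (limma, adjusted p = 0.748). Replicate 1 of each group gave 0.82 and replicate 2 gave 0.16. Without shPTPRN3 replicate 1 the sign turned, at -0.01 (limma, adjusted p = 0.999). The deposited FPKM of CHI3L1 lay above its interval in every library, for example 699 against 609 to 623 in shPTPRN3 replicate 1. With the midpoint of each interval in place of the FPKM, an alternative chosen after seeing the data, the difference was 0.48. With FPKM rescaled to the same total per library it was 0.58 with an SE of 0.37 (limma, adjusted p = 0.640). The order of the libraries was not compared on that scale.

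**Figure D2:**
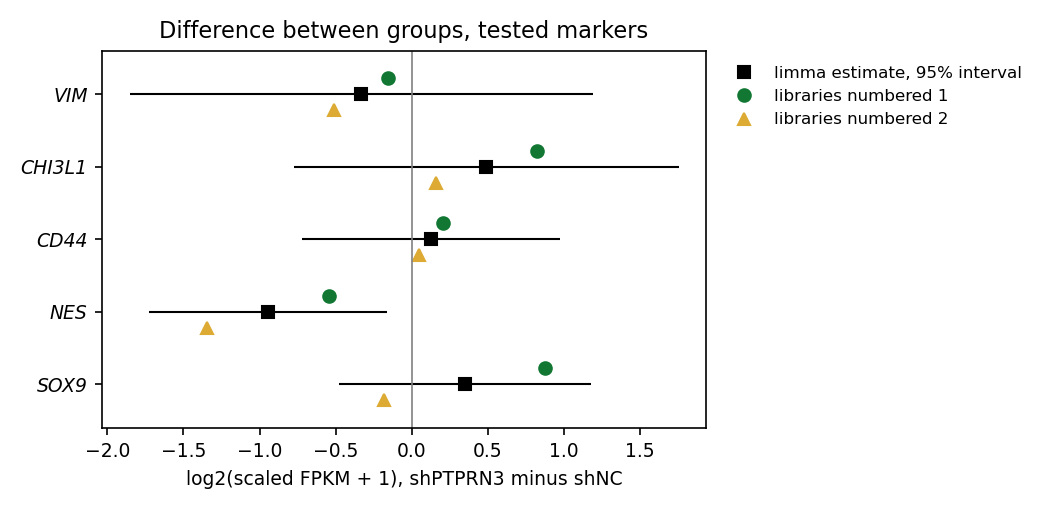
Difference between shPTPRN3 and shNC on the log2(scaled FPKM + 1) scale for the 5 tested markers; squares and lines are limma's estimate and 95% interval over 4 libraries, circles and triangles the differences between libraries that carry the same number. The NES interval lies below 0 before adjustment, and SOX9 has opposite signs in its 2 same-numbered differences.

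Most other genes of the mesenchymal state were expressed. Of 25 listed genes 24 were tested, and 1 stayed below 1 scaled FPKM in every library. The list's median log2 difference was 0.26, and limma called none, with 2 at an unadjusted p under 0.05. The most abundant were S100A11, a calcium-binding protein gene, at 1299 and 786 scaled FPKM in shNC, against 1379 and 1050 in shPTPRN3, and LGALS1, galectin-1, at 1413 and 451 against 1191 and 356. For LGALS1 both libraries numbered 1 were above both numbered 2. ANXA1, annexin A1, had 722 and 729 in shNC against 691 and 806. The groups did not overlap for 9 of the 24, 7 with shPTPRN3 above and 2 with shPTPRN3 below, against 44.6% of all tested genes in either direction. By direction, 21.5% of all tested genes had shPTPRN3 above and 23.1% below. The 2 that passed an unadjusted p under 0.05, named after their values were seen, were PDPN, podoplanin, with means of 2.66 and 9.53 scaled FPKM, and the transcription factor gene STAT3, with 11.4 and 30.7. Their log2 differences were 1.47 and 1.35.

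Genes around CD44 covered its ligand, linkers and proteases. Of 19 such genes 14 were tested, limma called none and 3 had an unadjusted p under 0.05, against 13.4% of all tested genes. SPP1, osteopontin, a CD44 ligand, had 296 and 354 scaled FPKM in shNC, against 520 and 443 in shPTPRN3 (log2 difference 0.57, limma, adjusted p = 0.647). Its groups did not overlap, an order found in 21.5% of tested genes. MMP14, a membrane protease that can cleave CD44, had 138.0 and 139 against 275 and 143. MSN, moesin, which ties CD44 to actin, had 68.2 and 130 against 107 and 134. The 3 genes at an unadjusted p under 0.05, named after their values were seen, were HMMR, a hyaluronan-binding protein of the mitotic spindle (means of 10.8 and 1.32), CEMIP, which takes part in hyaluronan breakdown (11.5 and 1.95), and ADAM17, a membrane sheddase (6.03 and 11.7).

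Of 6 chitinase-family and CHI3L1 receptor genes 3 were tested and limma called none, also none at an unadjusted p under 0.05. TMEM219, a CHI3L1 co-receptor, had 78.3 and 40.0 scaled FPKM in shNC, against 76.4 and 29.6 in shPTPRN3. CHID1 had 18.0 and 13.8 against 26.0 and 21.4. CHI3L2, a close relative of CHI3L1, had 1.09 and 0.412 against 3.76 and 1.25, and its log2 difference was 0.93 (limma, adjusted p = 0.414). As for CHI3L1, shPTPRN3 replicate 1 held the highest value.

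The lineage factors were low. SOX9, an HMG-box transcription factor of astrocyte and stem-cell identity, has its locus on chromosome 17 (72121020 to 72126413, plus strand). Its FPKM was 0.883 and 1.42 in shNC and 2.53 and 1.10 in shPTPRN3. Only shPTPRN3 replicate 1, with a deposited interval of 2.197 to 2.79, stood above the other 3, whose intervals together spanned 0.691 to 1.72. The log2 difference was 0.35 with a 95% interval from -0.48 to 1.18 (limma, adjusted p = 0.724). It was 0.88 between the replicates 1 and -0.18 between the replicates 2, so these differences had opposite signs, and it was 0.02 without shPTPRN3 replicate 1.

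SOX2, the related factor that maintains neural stem cells, has its locus on chromosome 3 (181711925 to 181714435, plus strand), inside the locus of the non-coding gene SOX2-OT. It was listed at 0 and 0.0527 FPKM in shNC and at 0.151 and 0.231 FPKM in shPTPRN3. Both knockdown values were above both control values, but all 4 were below 1 FPKM and under the filter. Such an order was found in 21.5% of tested genes, and its share among genes under the filter was not computed. The deposited interval of shNC replicate 2 (0 to 0.121) overlapped those of shPTPRN3 (0.0735 to 0.221 and 0.0943 to 0.354). SOX2-OT stood at 0.0405 to 0.0556 FPKM. Its part in the values listed for SOX2, which lies on the same strand, was not tested.

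OLIG2, a bHLH factor of oligodendrocyte progenitors and of proneural glioma, has its locus on chromosome 21 (33025935 to 33029183, plus strand). Its FPKM was 0.438 and 0.321 in shNC and 0.918 and 0.522 in shPTPRN3. Both knockdown libraries were above both controls. That order was found in 21.5% of tested genes, and its share among genes under the filter was not computed. The interval of shPTPRN3 replicate 1 (0.699 to 1.13) lay apart from those of both controls (0.278 to 0.603 and 0.147 to 0.491), and that of shPTPRN3 replicate 2 (0.311 to 0.741) overlapped both. Scaled means were 0.376 ± 0.0654 and 0.713 ± 0.225 (SD, n = 2), a ratio of 1.90 that was not tested under the filter.

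Of 16 other SOX genes 2 were tested and limma called none. SOX12 had 9.98 and 9.73 scaled FPKM in shNC, against 7.64 and 5.42 in shPTPRN3, and SOX13 had 1.10 and 1.09 against 3.05 and 3.49. SOX13, with a log2 difference of 1.02 (limma, adjusted p = 0.192), was the 1 gene of the list at an unadjusted p under 0.05. SOX5, a further family member, had 0.142 and 1.56 against 0.573 and 0.823 and was not tested. SOX1, SOX11, SOX15 and SOX30 were listed at 0 in all 4 libraries, and 13 of the 16 stayed below 1 scaled FPKM in every library.

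Of 13 proneural and oligodendrocyte-progenitor genes 3 were tested and limma called none, also none at an unadjusted p under 0.05. OLIG1 and NKX2-2, which accompany OLIG2 in progenitors, were listed at 0 in all 4 libraries. TCF12, a broadly expressed bHLH partner factor, had 5.92 and 14.5 scaled FPKM in shNC, against 11.8 and 13.5 in shPTPRN3. CSPG4, the NG2 proteoglycan of progenitors and pericytes, had 4.18 and 4.98 against 13.2 and 3.01, with shPTPRN3 replicate 1 above the other 3. NCAM1, a neural adhesion molecule, had 0.850 and 1.17 against 1.202 and 1.10.

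The surface and calcium-binding markers were close to 0. PROM1, which encodes CD133, a membrane glycoprotein used to sort glioma stem cells, has its locus on chromosome 4 (15968228 to 16084023, minus strand). Its FPKM was 0.0104 and 0.0165 in shNC and 0.00629 and 0.0161 in shPTPRN3, each with a lower bound of 0 and upper bounds from 0.0621 to 0.163. Each deposited interval included 0 and overlapped the other 3, and the groups overlapped. S100B, a calcium-binding protein of astrocytes, has its locus on chromosome 21 (46598604 to 46605082, minus strand). Its FPKM was 0.211 in shNC replicate 1 and 0.155 in shPTPRN3 replicate 1, the deeper library of each group, and it was listed at 0 in both libraries numbered 2. The groups overlapped.

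Other stem-cell genes were mostly low as well. Of 20, 7 were tested, 11 stayed below 1 scaled FPKM in every library, and MSI1 and POU3F3, regulators of neural progenitors, were listed at 0 throughout. limma called none, with 1 at an unadjusted p under 0.05. ID1, an inhibitor of bHLH factors and the most abundant, had 358 and 85.3 scaled FPKM in shNC, against 222 and 79.5 in shPTPRN3, so that both libraries numbered 1 were above both numbered 2. NOTCH2, a receptor of the Notch pathway, had 13.2 and 31.0 against 38.0 and 44.8 (log2 difference 0.99, limma, adjusted p = 0.406). BMI1, a Polycomb protein gene, had 8.15 and 12.1 against 11.9 and 16.4. The gene at an unadjusted p under 0.05, named after its values were seen, was MELK, a kinase gene expressed in dividing cells, with means of 19.6 and 3.16 and a log2 difference of -2.35 (limma, adjusted p = 0.0575).

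The astrocyte list was mixed. Of 18 other genes 10 were tested, with a median log2 difference of -0.10. None was called by limma, and 3 had an unadjusted p under 0.05, against 13.4% of all tested genes. AQP4 and MLC1, membrane proteins of astrocyte endfeet, were listed at 0 in all 4 libraries, as GFAP was. CLU, clusterin, a secreted chaperone, had 114 and 75.9 scaled FPKM in shNC, against 216 and 253 in shPTPRN3 (log2 difference 1.32, limma, adjusted p = 0.238). APOE, a lipid carrier, had 148 and 92.5 against 202 and 55.8. ID3, a relative of ID1, had 179 and 44.5 against 116 and 34.0. Beside CLU, the genes at an unadjusted p under 0.05, named after their values were seen, were GJA1, the astrocyte gap-junction protein connexin 43 (means of 12.5 and 45.4), and FABP7, a fatty-acid-binding protein of radial glia (2.26 and 0.910). CLU and GJA1 were higher in shPTPRN3 and FABP7 was lower, so members of the list lay on both sides of 0.

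**Figure D3:**
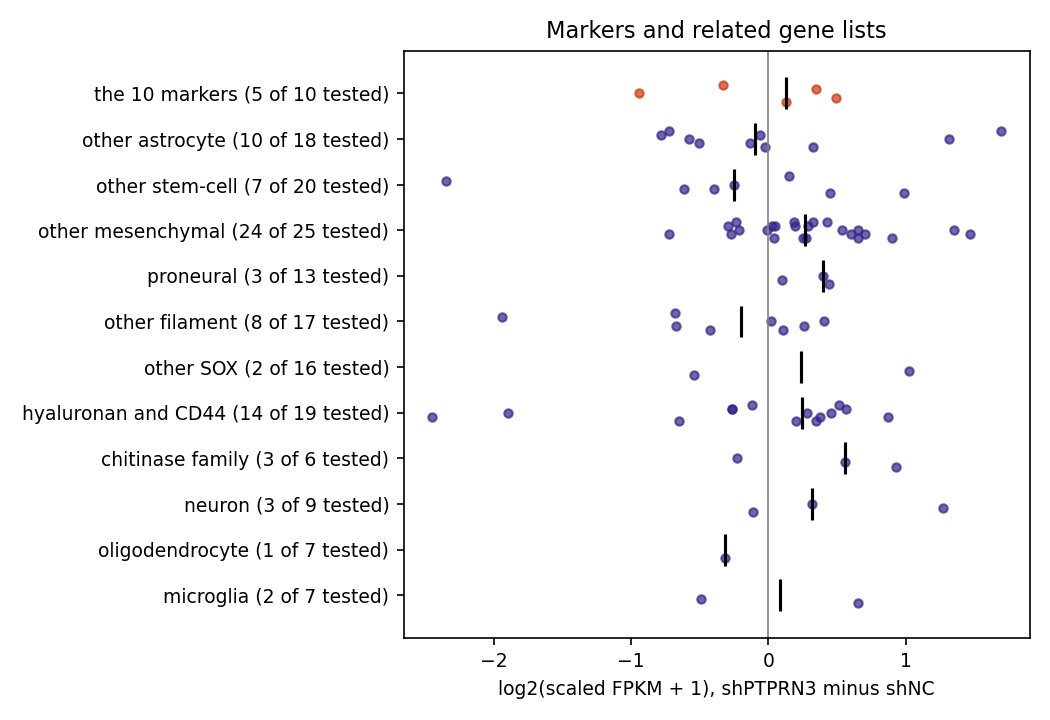
Difference between shPTPRN3 and shNC on the log2(scaled FPKM + 1) scale for each tested gene of the 10 markers (red) and of the related lists (blue); black bars are list medians, and points are spread vertically only for legibility. Each list with 3 or more tested genes spans values below and above 0 except the proneural genes, and none of the points shown was called by limma.

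Markers of cells other than glioma cells were low in most cases. All 5 endothelial markers stayed below 1 scaled FPKM, summing to 0.383 and 1.09 in shNC and 0.481 and 0.822 in shPTPRN3, the highest being PECAM1. Of 7 oligodendrocyte genes only CNP was tested, at 22.2 and 19.5 against 14.9 and 18.4, and MBP, a myelin gene, had a mean of 0.501. Of 9 neuron genes 6 stayed below 1 scaled FPKM in every library, ELAVL4 and SYN1 were listed at 0, and the list summed to 9.54 and 12.5 in shNC and 32.8 and 14.8 in shPTPRN3. SNAP25, a vesicle fusion protein, made up most of the sum in shPTPRN3 replicate 1, at 28.5 against 7.15, 5.95 and 10.2 in the others. The neuron list also held MAP2, with a mean of 2.604, and SYT1, with a mean of 1.79. The microglia list summed to 228 and 255 in shNC and 436 and 327 in shPTPRN3, nearly all of it CD68 (225 and 253 against 434 and 326), a lysosomal protein gene. PTPRC, the defining leukocyte marker, had a mean of 0.117 and CSF1R one of 1.51. The part of these genes in the values of the 10 markers was not tested.

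**Figure D4:**
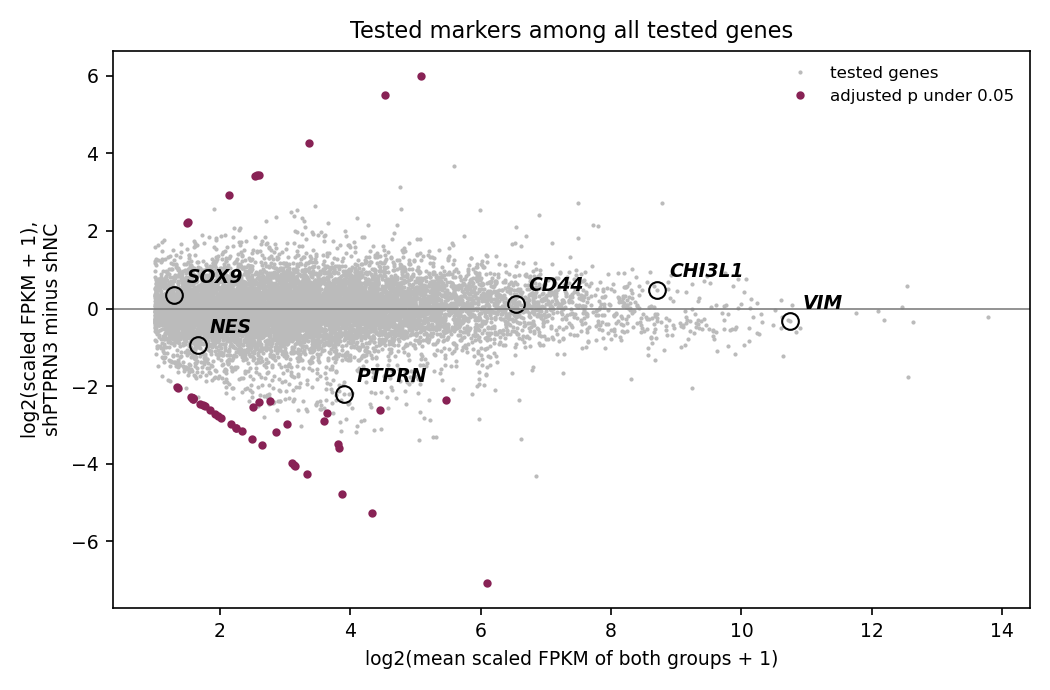
Mean level (horizontal axis, log2 of mean scaled FPKM + 1) and difference between shPTPRN3 and shNC (vertical axis, log2) for 11390 tested genes in grey, the 48 genes called by limma in purple, and the 5 tested markers and PTPRN circled. The markers lie within the grey cloud, NES lowest among them at -0.94.

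The 5 tested markers did not share one pattern. Over the 4 libraries, by Euclidean distance between centred log2 values, the closest of 77 tested genes from the other lists was CSF1R for VIM (0.17), SLC1A3 for NES (0.28), NCAM1 for CD44 (0.08), HYAL2 for CHI3L1 (0.24) and SYT1 for SOX9 (0.34). SLC1A3, a glutamate transporter of astrocytes, followed NES with 6.78 and 12.6 scaled FPKM in shNC, against 5.50 and 4.96 in shPTPRN3. HYAL2, a hyaluronidase, followed CHI3L1 with 27.7 and 22.6 against 41.3 and 22.8, again highest in shPTPRN3 replicate 1. Among the markers themselves the closest pair was CD44 and SOX9, at a distance of 0.53, which is more than the whole spread of CD44 about its mean (0.15). The pseudocount of 1 in these log2 values compresses genes at low level, such as CSF1R (mean 1.51 scaled FPKM) and NCAM1 (1.08). A small distance to such a gene therefore need not mean a similar fold change. With 4 libraries these distances only describe the values.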

How the data were processed

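RNA from 4 U87 libraries (shNC and shPTPRN3, 2 each) was turned into stranded mRNA libraries, per the labels' protocols. The submitters' processing notes list FastQC 0.72, then STAR (2.6.0b-1) with Cufflinks (2.2.1.2), and build hg38. The annotation and strand setting were not stated. The authors deposited FPKM with confidence bounds and a quality status, per the file headers, for 33646 rows in each library. FPKM vary with the transcript length assumed and with the sharing of fragments between overlapping genes.

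Here 651 rows not marked OK in every library were dropped, and the others were summed per symbol and scaled by median-ratio factors from 9988 genes that reached 1 FPKM in all libraries. limma 3.58.1 (R 4.3.3) was run on log2(scaled FPKM + 1), two-sided, using eBayes with a trend (residual degrees of freedom 2, prior 4.94). P-values were adjusted by Benjamini-Hochberg over all genes tested. The procedure was tested on simulated data.

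The members, gene lists and tests were chosen with earlier results of these data known. Named genes were the 10 markers, PTPRN, the 3 genes of each list with the highest mean, and the closest gene to each tested marker. Any called gene of a list was to be named, but no list gene was called. Genes that overlap a marker locus and some list genes at 0 in every library were named too. Others are marked in the text as named after their values were seen. Some list genes are not reported here. GENCODE 29 gave strands, transcripts and the hairpin matches; positions are those of the tables, counted from 1. Python 3.11.15, pandas 2.3.3, numpy 2.4.6 and matplotlib 3.10.9 were used. Alternatives covered scaling, pseudocount, filters, row status, eBayes settings, the replicate number as a block, each library left out and, added after seeing the data, genes listed at 0 left out and interval midpoints.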

Additional observations from a re-analysis of the deposited data

How the results depend on the processing

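By limma, 0 of the tested markers were called in all but 1 of the 17 alternatives, of which the minimum of 5 FPKM left only VIM, CHI3L1 and CD44. The exception was the replicate block, where NES was called lower (-0.94, adjusted p = 0.0278), so 1 marker was called lower and 2163 genes were called in all, against 48 without the block. The same-numbered libraries deviated together from their group means (r = 0.519 over 11390 genes), but the labels give no reason for a pairing and 2 numbers are too few to judge one. Over the other alternatives the adjusted p of NES ran from 0.199 to 0.929. CHI3L1 turned to -0.00913 without shPTPRN3 replicate 1, and its estimates without single libraries reached 0.99. Without single libraries VIM ran from -0.66 to -0.00034, NES from -1.23 to -0.65, CD44 from 0.07 to 0.19 and SOX9 from 0.02 to 0.67, all with the sign they have over 4 libraries.

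The number of genes called was 31 on FPKM as deposited, 23 when the pseudocount was 0.1, 0 when low genes were not filtered (limma; 2163 at an unadjusted p under 0.05), 8 when the minimum mean was 5 FPKM, 26 when eBayes had no trend, 160 with robust eBayes and 217 with genes listed at 0 left out. Without single libraries it ran from 39 to 179, the latter without shPTPRN3 replicate 1; the cause was not tested. Unfiltered, SOX2 had a log2 difference of 0.22 (limma, adjusted p = 0.358), OLIG2 0.31 (0.527), PROM1 -0.00279 (0.979) and S100B -0.03 (0.937). The pseudocount of 1 compresses such low values. SOX2 was among the genes at an unadjusted p under 0.05 in that fit (limma, 0.0187). With FPKM rescaled to the same total per library, OLIG2 passed the filter, at 0.57 (limma, adjusted p = 0.692). The deposited lower bounds of GFAP, PROM1, S100B and SOX2 were 0 in at least 1 library; the part of depth in this was not tested, and SOX2 was listed at 0 in shNC replicate 1, the deeper control library.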
